A study of Rattus norvegicus with 30 samples.

Results

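The pyruvate dehydrogenase complex joins glycolysis to the citric acid cycle in mitochondria, and its activity is set by a small family of kinases and phosphatases. Messenger RNAs of 10 genes of this family were followed here in rat heart: the kinases Pdk1, Pdk2, Pdk3 and Pdk4, the phosphatases Pdp1 and Pdp2, and the subunits Pdha1, Pdhb, Dlat and Pdhx. They were found by gene symbol in the table of normalized values of each age, where they held 13 of 27408 rows at 8 weeks, 13 of 27383 at 21 weeks and 13 of 26553 at 78 weeks. Pdk2, Pdk4 and Pdhb had 2 rows each, and all rows were kept.

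The hearts came from untreated male and female F344 (Fischer) rats, an inbred strain, on one diet and with no genetic change. There were 6 groups of 5 rats, females and males of 8, 21 and 78 weeks, and each rat gave 1 Agilent array of 45018 spots hybridized with Cy3-labeled cRNA. Females and males of an age shared their slides, with females at the even and males at the odd positions, so array position and sex cannot be told apart. Whole-heart RNA was measured, and fewer cells of a type and less RNA per cell cannot be told apart in it. Nothing in the labels says whether rats were littermates, and p-values measure the spread between these rats.

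The kinases phosphorylate the E1 alpha subunit and switch the complex off, and the phosphatases remove the phosphate and switch it on. Pdha1 and Pdhb encode the alpha and beta subunits of E1, Dlat encodes E2, the acetyltransferase core, and Pdhx encodes the E3-binding protein that holds dihydrolipoamide dehydrogenase in place. Pdk4 is known in heart and muscle as the kinase whose transcription goes up in fasting and with fatty acid supply, through PPAR, FoxO and glucocorticoid signaling. Pdk1 is known as a target of hypoxia-inducible factor.

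The scanner software called between 17182 and 24290 of 43379 non-control spots of an array well above background, with the lowest number on male replicate 2 at 21 weeks. The 7 cardiomyocyte markers examined, among them Myh6 and Tnnt2, were well above background on all arrays. Of the 30 arrays, 1 labeled female and 1 labeled male had Ddx3y and Eif2s3y, both Y-linked, at levels typical of the opposite sex. They were female replicate 2 and male replicate 3 at 78 weeks, and their labels were kept, so results of that age and of all ages together are given with and without both. The 78-week array of female replicate 4 also stood apart, with a median distance of 0.832 (root mean square of log2 differences over rows) from the other arrays of its age, against 0.565 to 0.731 for the remaining 9. At 21 weeks male replicate 2 stood at 0.909 and the others at 0.592 to 0.785, and at 8 weeks male replicate 1 stood at 0.752 and the others at 0.557 to 0.588. On the scanner scale the summed level of 4 erythroid markers was 17.5 in female replicate 4 at 78 weeks. In the other rats of 78 weeks it was 43.4 to 63.3.

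A probe fixes what each row measured. The 13 rows rested on 15 probes of 60 bases, whose positions the scanner files give on the rat genome build rn3. Probes of 5 genes lay on stretches of the genome longer than the probe and so cross at least 1 intron. They are shown here in the probe's own direction, 5′ to 3′, as the sequence that defines the transcript counted for these rows. The Pdk1 probe lay at chr3:54199346-54199646 on the plus strand, a Pdk3 probe at chrX:81214299-81219108, the dim Pdk4 probe at chr4:30283045-30284933, the bright Pdhb probe at chr15:18740251-18740642 on the plus strand and the Pdhx probe at chr3:88149704-88155924, with those of Pdk3, Pdk4 and Pdhx on the minus strand.
Pdk1 (A_44_P139718): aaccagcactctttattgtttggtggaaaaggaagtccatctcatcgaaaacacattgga
Pdk3 (A_44_P443343): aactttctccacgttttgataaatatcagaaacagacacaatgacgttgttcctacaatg
Pdk4 (A_44_P231269): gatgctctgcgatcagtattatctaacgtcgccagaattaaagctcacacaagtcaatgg
Pdhb (A_44_P433425): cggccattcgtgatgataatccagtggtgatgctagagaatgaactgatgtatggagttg
Pdhx (A_44_P247849): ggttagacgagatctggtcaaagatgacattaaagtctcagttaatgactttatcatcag

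The second row of Pdhb came from a probe built on the expressed sequence tag AA892828, at chr15:18742929-18742988, and it ran opposite to the probe above. The second Pdk2 row, built on the tag AA957202 at chr10:83725502-83725561, also ran opposite to the main Pdk2 probe at chr10:83724947-83725006. The opposite probes had mean log2 values over the 30 arrays of -1.63 for Pdhb and -1.04 for Pdk2, and the main probes of these genes 4.98 and 6.16. These levels are on the scanner scale, log2 of a spot's processed signal after division by its array's 75th percentile. Levels of different probes reflect the probes as well as the transcripts, so no row was ranked above another. The bright Pdk4 row was built on the tag AI031053, at chr4:30277743-30277802, on the same strand as the dim Pdk4 probe and downstream of it. None of the 15 probes was saturated on any array.

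No row of the family passed an adjusted p of 0.05 between the sexes at any age, while Pdk4 had the largest female minus male differences of the family's brightest rows at 8 and 21 weeks. Sexes were compared on log2 values with limma over all rows of a table. At 8 weeks 0 of 13 rows passed, where 0.102% of all rows did, and 3 of 13 had an unadjusted p under 0.05, against 5.74% of all rows. In 21-week rats 0 of 13 passed and 3 of 13 had an unadjusted p under 0.05, against 0.0511% and 15.9% of all rows. At 78 weeks 0 of 13 passed and 1 of 13 had an unadjusted p under 0.05, against 0% and 5.65% of all rows. The 7 rows under 0.05 were both Pdk4 rows and the main Pdk2 row at 8 weeks, both Pdk4 rows and Pdk1 at 21 weeks, and Pdp1 at 78 weeks. At 21 weeks the median difference of all rows was itself shifted, to -0.14, and under quantile normalization to -0.03, so the 21-week values below stand against that shift.

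Pdk4, the kinase tied to fasting and fatty acid use, had normalized intensities of 14.98, 15.8, 16.8, 19.5 and 20.4 in the 5 females of 8 weeks in its bright row. The 5 males of that age had 10.6, 11.3, 11.7, 12.4 and 14.6. Every female lay above every male. The sexes did not overlap, in either direction, in 1 of 13 rows of the family and 1.41% of all rows. Females averaged 4.12 ± 0.19 on the log2 scale (SD, n = 5) against 3.59 ± 0.17 for males, a difference of 0.53 (SE 0.12) or 1.44-fold. An exact permutation test, two-sided here and below, gave p = 0.00794, the smallest that 5 against 5 rats allow, while limma gave an adjusted p of 0.301.

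At 21 weeks the females had 15.9, 16.3, 21.6, 22.4 and 45.8 in the bright Pdk4 row. The males had 11.9, 12.4, 12.8, 13.1 and 13.6, a narrow range below all females. A separation of the sexes, in either direction, was found in 1 of 13 rows of the family and 4.05% of all rows of that age. Mean log2 values were 4.49 ± 0.62 and 3.67 ± 0.07 (SD, n = 5), which is a difference of 0.82 (SE 0.26) or 1.76-fold (exact p = 0.00794, limma adjusted p = 0.277). Female replicate 3 held the value of 45.8. With that rat and the weakest male array both left out, an alternative added after the data were seen, the difference on the scanner scale was 0.59 (SE 0.17). With normexp background correction of the scanner signals the 21-week difference was 1.33 (SE 0.50, limma adjusted p = 0.352). Under it Pdk2, Pdp1, Pdhb and Dlat of that age also turned toward females, at 0.69, 0.42, 0.47 and 0.47. Pdk1, Pdk3 and Pdhx kept their sign. The 21-week male arrays were weaker as a group, with a 75th percentile signal of 39.9 to 104.8 (median 72.1). Female arrays had 82.7 to 123.1 (median 105.9). The part of signal strength in these differences was not tested.

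At 78 weeks the sexes overlapped, with bright-row values of 17.5, 20.6, 32.1, 32.4 and 40.7 in females and 15.8, 19.2, 19.4, 21.1 and 40.7 in males. The female value of 20.6 and the male value of 40.7 were those of the 2 arrays whose Y-linked genes went against their labels. Over all 10 arrays the difference was 0.32 (SE 0.30, exact p = 0.397, limma adjusted p = 0.879). Without single rats it ran from 0.18 without female replicate 5 to 0.54 without male replicate 3. Without both arrays it was 0.65 (exact p = 0.114, 4 against 4, where the smallest possible p is 0.0286), with a limma adjusted p of 0.565. With normexp background correction of the scanner signals the 78-week difference over the 10 arrays was -0.14. No row of the family and 0.9% of all rows separated the sexes over the 10 arrays.

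**Figure D1:**
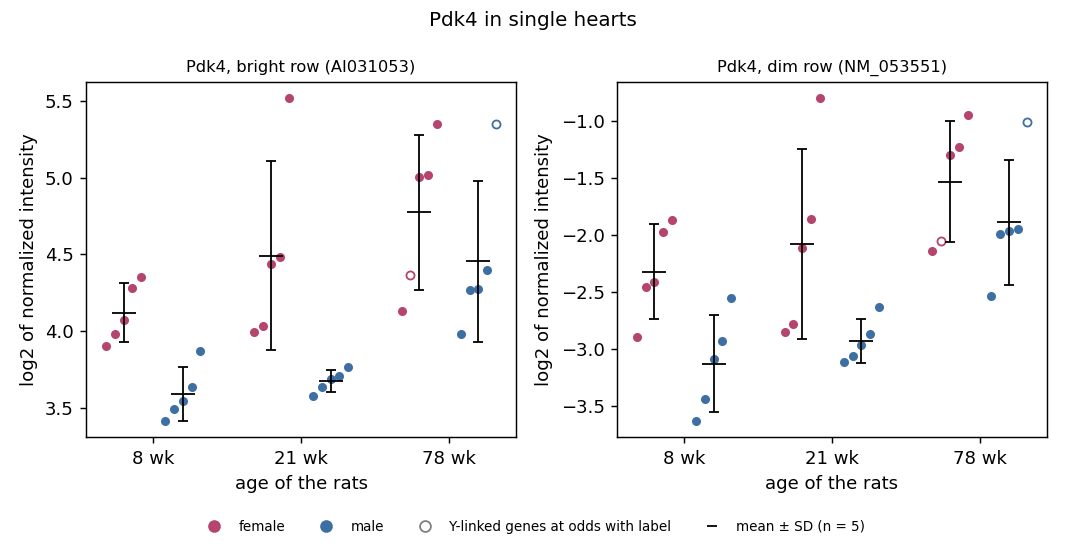
Normalized intensity of Pdk4 (log2, y axis) in single hearts by age (x axis) for the bright row on the left and the dim row on the right, with females in red, males in blue and black marks for the mean and SD of 5 rats. At 8 and 21 weeks all females lie above all males in the bright row. At 78 weeks the sexes overlap, and open circles mark the arrays whose Y-linked genes went against their labels.

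The dim Pdk4 row, from the probe printed above, gave the same order of the sexes. Females of 8 weeks had 0.134, 0.182, 0.188, 0.255 and 0.275 and males 0.0804, 0.0921, 0.118, 0.132 and 0.170, with 1 female inside the male range. The difference was 0.81 (SE 0.25, exact p = 0.0159, limma adjusted p = 0.659) at 8 weeks, 0.85 (SE 0.35, exact p = 0.0397, limma adjusted p = 0.297) at 21 weeks and 0.36 (SE 0.31, exact p = 0.349, limma adjusted p = 0.873) at 78 weeks. This probe was well above background on 29 of 30 arrays. After group means were subtracted, both Pdk4 probes moved together over the 30 arrays (Pearson r = 0.87, Spearman rho = 0.76), a description of 2 probes of one gene on shared arrays.

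Taking the 3 ages in 1 model, with 15 rats of each sex and 41012 probes, Pdk4 was 1.49-fold higher in females by the bright probe (difference 0.57, SE 0.14, limma adjusted p = 0.0676) and 1.61-fold by the dim probe (difference 0.69, SE 0.19, limma adjusted p = 0.0852). No probe of the family passed at 0.05, where 0.449% of all probes did, and 3 of 15 had an unadjusted p under 0.05, against 12.9% of all probes. These were the Pdk4 probes and the Pdk3 probe A_44_P991682. Without both arrays at odds with their labels the 2 Pdk4 probes passed, with differences of 0.68 (SE 0.13, limma adjusted p = 0.0104) and 0.80 (SE 0.18, limma adjusted p = 0.0290). Without 1 array at a time the calls also moved. Leaving out male replicate 3 at 78 weeks alone brought both under the threshold (limma adjusted p = 0.0211 and 0.0479), and so did leaving out male replicate 1 at 21 weeks (0.0451 and 0.0493). The bright probe passed without female replicate 2 or 4 at 78 weeks (limma adjusted p = 0.0434 and 0.0465).

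The slides give the same comparison within a hybridization unit. Each age was spread over 3 slides that held both sexes, and the bright Pdk4 probe was higher in females on 8 of 9 slide and age combinations. Its differences ranged from -0.16 to 1.16, and those of the dim probe from -0.13 to 1.16. The slide with the negative values held both arrays of 78 weeks at odds with their labels. With the slide as a block the pooled difference of the bright probe kept its size (0.57, SE 0.16), with a limma adjusted p of 0.119.

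**Figure D2:**
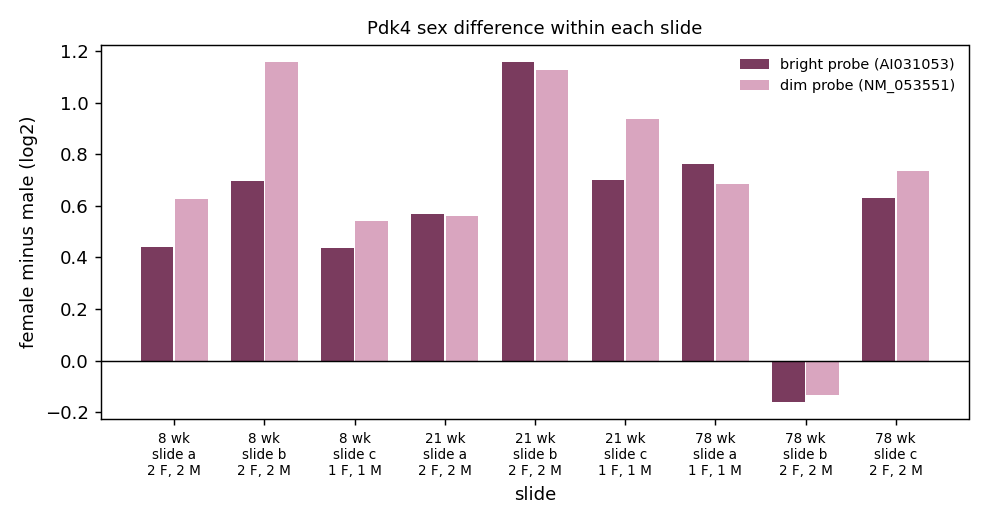
Female minus male difference of the 2 Pdk4 probes (log2, y axis) on each slide of each age (x axis, with the number of females, F, and males, M), dark bars for the bright and pale bars for the dim probe. Bars lie above 0 on 8 of 9 slides and below it, at -0.16 and -0.13, on the 78-week slide with both arrays at odds with their labels.

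Markers of other cell types were read beside Pdk4. The summed table level of 4 erythroid markers was 16.6 to 27.3 in females and 24.0 to 38.4 in males at 8 weeks. There 3 of the 4 (Hbb, Alas2 and Slc4a1) had an unadjusted p under 0.05, all higher in males. The fourth, Hba-a2, had a higher mean in females (difference 0.33), without such a p. At 21 weeks the sums were 22.3 to 37.5 and 31.3 to 58.2, and at 78 weeks 8.81 to 33.3 and 28.9 to 36.2. At 78 weeks Slc4a1 was higher in females (difference 0.35, unadjusted p under 0.05), while Hbb and Alas2 had higher means in males. In table values the sum of 5 fibroblast markers did not overlap at 8 weeks, at 225.2 to 259.2 in females and 267.2 to 301.4 in males. Col3a1 and Col1a1 had an unadjusted p under 0.05. On the scanner scale the 8-week sums overlapped, at 397 to 447 and 432 to 487. The table sum overlapped at 21 weeks, at 123.9 to 156.5 and 136.3 to 168.7, and at 78 weeks, at 87.9 to 147.1 and 117.6 to 171.7. At 21 weeks 5 endothelial markers summed to 55.7 to 75.9 in females and 29.7 to 59.6 in males, with Kdr higher in females and Tek higher in males at an unadjusted p under 0.05. Leukocyte markers of that age summed to 65.5 to 83.3 and 76.1 to 132.8, with Cd74 higher in males. Skeletal muscle markers of that age reached 22.6 on the scanner scale in female replicate 2 and stood at 0.989 to 2.46 in the other 9 rats. Summed levels of 5 white fat markers overlapped between the sexes at each age, at 33.4 to 55.5 and 32.8 to 70.0 at 8 weeks, 33.7 to 128.1 and 46.1 to 91.8 at 21 weeks and 42.8 to 80.9 and 32.4 to 131.1 at 78 weeks in females and males. Over the 30 arrays, with group means subtracted, Pdk4 correlated with the summed fat markers at Pearson r = 0.33 (Spearman rho 0.21) for white fat and 0.24 (0.04) for brown fat, with the erythroid markers at 0.31 (0.23), and with the fibroblast markers at -0.07 (-0.15). Smooth muscle markers stood at 0.33 (0.19), and cardiomyocyte, skeletal muscle, endothelial and leukocyte markers between -0.15 and 0.19. The pooled values mixed signs, with -0.50, 0.45 and 0.41 for white fat, -0.52, 0.47 and 0.27 for brown fat and -0.20, 0.17 and 0.49 for the erythroid markers within 8, 21 and 78 weeks. Without the 2 arrays with the most extreme Pdk4 the values for fat were 0.07 and -0.06, and for the erythroid markers 0.42. Their part in the Pdk4 difference was not tested.

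Pdk2, a kinase present in most tissues, had values from 41.0 to 44.6 in females of 8 weeks, with a median of 42.8, in its main row. Males had 35.9 to 41.2, with a median of 38.2. The highest male lay just inside the female range. The difference was 0.15 (SE 0.06, 1.11-fold, exact p = 0.0159, limma adjusted p = 0.803). In 21-week rats the difference was -0.05 (SE 0.14, exact p = 0.675) and at 78 weeks 0.14 (SE 0.12, exact p = 0.254). The opposite-strand row differed by 0.03, 0.14 and 0.11 at the 3 ages (exact p = 0.746, 0.119 and 0.317). Without both doubtful arrays its sexes no longer overlapped at 78 weeks (difference 0.21, exact p = 0.0286, the smallest possible). The share of all rows that separate in this way was not counted.

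Pdk1, the kinase known as a hypoxia target, was the one kinase with higher values in males at 21 weeks that came under an unadjusted limma p of 0.05. Females of 21 weeks had 2.05, 2.17, 2.21, 2.24 and 2.41, and males had 2.37, 2.76, 3.23, 3.83 and 4.21. The lowest male lay inside the female range and the remaining 4 lay above it. The difference was -0.54 (SE 0.17), males being 1.45-fold higher, with exact p = 0.0159 and a limma adjusted p of 0.274. At 8 weeks females had 1.64 to 2.35 and males 1.55 to 1.82, a difference of 0.20 (SE 0.11, exact p = 0.0952), and at 78 weeks 1.47 to 2.07 and 1.20 to 1.68, a difference of 0.22 (SE 0.13, exact p = 0.0794). All Pdk1 values come from the probe printed above.

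The change of sign between ages was tested in the model of 30 arrays. For Pdk1 the sex difference at 21 weeks was lower than at 8 weeks by 0.74 (estimate -0.74, SE 0.20, limma adjusted p = 0.276), and that at 78 weeks exceeded that at 21 weeks by 0.77 (SE 0.20, limma adjusted p = 0.215). Neither passed. None of the 15 probes passed in any of the 3 contrasts, where 0.00244%, 0% and 0.00244% of all probes did for 21 against 8, 78 against 8 and 78 against 21 weeks. An unadjusted p under 0.05 was found for 1, 1 and 3 of 15 probes, against 17.3%, 2.52% and 13.5% of all probes. They were Pdk1 in the first, Pdp1 in the second, and Pdk1, Pdhb and Pdp1 in the third. For Pdk4 the sex differences at the 3 ages did not pass either, with contrasts of 0.29 (SE 0.35), -0.20 (SE 0.35) and -0.49 (SE 0.35) for the bright probe.

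Pdk3, another of the kinases, had values between 0.0164 and 0.0419 in all 30 hearts. Its row averaged 11 spots, 10 of the probe A_44_P443343, which was well above background on 3 of 30 arrays, and 1 of A_44_P991682, which was above it on all 30. The row therefore followed a probe near background, and its differences were -0.02, -0.32 and -0.16 at 8, 21 and 78 weeks (exact p = 0.905, 0.0317 and 0.214). The detected probe alone, at chrX:81189910-81189969, gave -0.05, -0.18 and -0.60 (exact p = 0.698, 0.429 and 0.0476), a choice made after the data were seen. Over the 3 ages this probe differed by -0.28 (SE 0.12, 1.21-fold higher in males, limma adjusted p = 0.289), and without both doubtful arrays by -0.34 (limma adjusted p = 0.169). Pdk3 lies on the X chromosome, as does Pdha1.

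Pdp1, the phosphatase activated by calcium, had values of 3.15, 3.51, 4.06, 4.27 and 5.31 in females and 2.86, 2.87, 3.26, 3.29 and 3.54 in males of 78 weeks. The highest female value was that of replicate 4, whose array stood apart. The difference was 0.34 (SE 0.15, 1.27-fold, exact p = 0.0556, limma adjusted p = 0.856). Without both doubtful arrays it was 0.47, with no overlap (exact p = 0.0286, the smallest possible). The share of all rows that separate without both arrays was not counted. At 8 and 21 weeks Pdp1 differed by 0.02 (SE 0.07) and -0.03 (SE 0.11), and all 20 values lay between 3.10 and 4.21. Pdp2, the second phosphatase, was well above background on 20 of 30 arrays, with 10 of 10 at 8 weeks, 2 of 10 at 21 weeks and 8 of 10 at 78 weeks. On all 5 males of 21 weeks it was not well above background, so no fold is given there and differences of that age rest on signals near background. At 8 weeks its values were 0.0976 to 0.148 in females and 0.0791 to 0.141 in males (difference 0.15, SE 0.18), and at 78 weeks 0.0348 to 0.103 and 0.0438 to 0.0937 (difference 0.15, SE 0.31).

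Among the subunits, Pdhb differed between the sexes in opposite directions at 21 and 78 weeks, without passing at either. Its main row had 19.5 to 22.8 in the females of 21 weeks and 22.5 to 30.2 in the males, with medians of 21.5 and 23.9 and a difference of -0.26 (SE 0.13, exact p = 0.0159, limma adjusted p = 0.331). At 78 weeks females had 12.0, 14.1, 15.1, 15.5 and 37.5 and males 12.0, 12.1, 12.1, 12.3 and 15.8, a difference of 0.42 (SE 0.28, exact p = 0.159, limma adjusted p = 0.856). The value of 37.5 was again replicate 4, and that of 15.8 the male array at odds with its label. The other 4 males lay between 12.0 and 12.3. Without female replicate 4 the difference was 0.14 (SE 0.12). Without both doubtful arrays the sexes did not overlap (difference 0.63, exact p = 0.0286, the smallest possible), replicate 4 being kept. How many of all rows separate 4 against 4 was not counted. The contrast of 78 against 21 weeks was 0.69 (SE 0.27, limma adjusted p = 0.302), and 0.41 (SE 0.16) without replicate 4. The opposite-strand row had differences of 0.40, -0.21 and 0.19 at the 3 ages (exact p = 0.222, 0.429 and 0.540).

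Pdha1, the subunit that the kinases phosphorylate, had the lowest SD between hearts of the 15 probes. Its values ran from 12.7 to 14.8 at 8 weeks, 11.8 to 14.4 at 21 weeks and 11.8 to 17.3 at 78 weeks over both sexes. The sex differences were 0.01 (SE 0.07), 0.06 (SE 0.11) and 0.13 (SE 0.12), with exact p = 0.817, 0.349 and 0.254. Over the 3 ages the difference was 0.08 (SE 0.06, 1.06-fold).

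Dlat and Pdhx, the core and the binding protein, had lower means in females at 8 and 21 weeks. For Dlat the differences were -0.15 (SE 0.10, exact p = 0.151), -0.15 (SE 0.11, exact p = 0.0476) and 0.07 (SE 0.11, exact p = 0.429) at 8, 21 and 78 weeks. For Pdhx they were -0.16 (SE 0.12, exact p = 0.206), -0.33 (SE 0.15, exact p = 0.0476) and -0.001 (SE 0.15, exact p = 0.984). For Pdhx the females of 21 weeks had 1.05 to 1.48, with a median of 1.18, and the males 1.17 to 1.77, with a median of 1.55. The smallest limma adjusted p of these 2 genes at any age was 0.316, for Pdhx at 21 weeks. Relative to the 21-week shift of all rows by -0.14, the Dlat difference of that age was about the size of the shift.

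**Figure D3:**
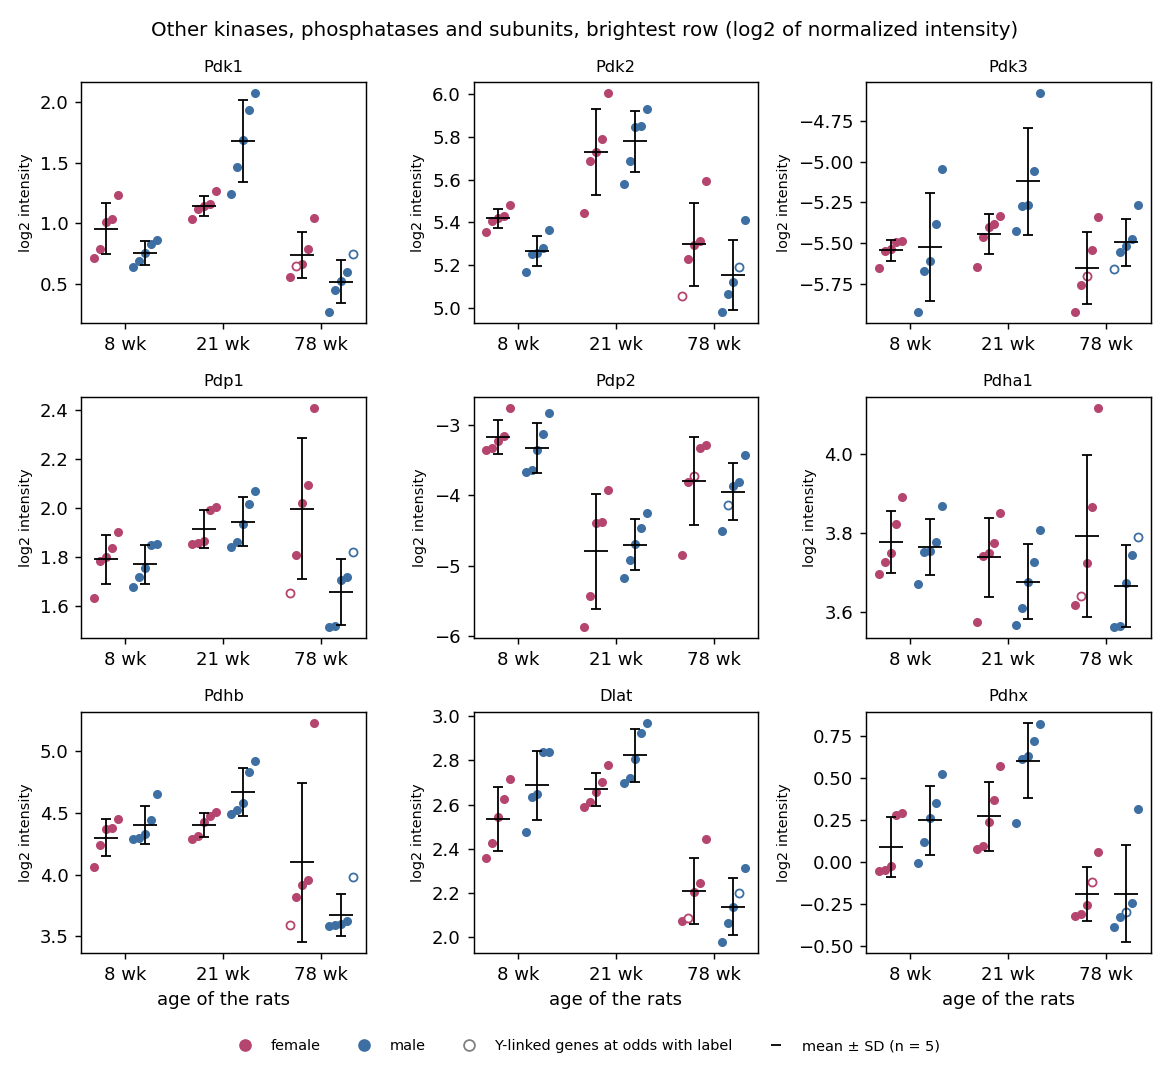
Normalized intensity (log2, y axis, own scale in each panel) of the brightest row of 9 genes in single hearts by age (x axis), females in red, males in blue, open circles for the 2 arrays at odds with their labels, black marks for the mean and SD of 5 rats. Pdk1 at 21 weeks lies higher in 4 of 5 males than in any female, and 1 female of 78 weeks lies far above her group for Pdhb.

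By gene, with the brightest row of each, 6 of 10 differences were positive at 8 weeks, 2 of 10 at 21 weeks and 8 of 10 at 78 weeks. Their medians were 0.02, -0.13 and 0.15, beside -0.004, -0.14 and -0.004 for all rows. Only Pdk4 and Pdha1 were positive at 21 weeks. The lean to females at 78 weeks was shared by gene lists described below. Other genes of the complex and of pyruvate handling had a median of 0.13, with 17 of 19 positive. Sister complexes stood at 0.11 (8 of 9) and glucose uptake and glycolysis at 0.14 (12 of 14). Hypoxia-inducible genes stood at 0.02 (11 of 19).

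**Figure D4:**
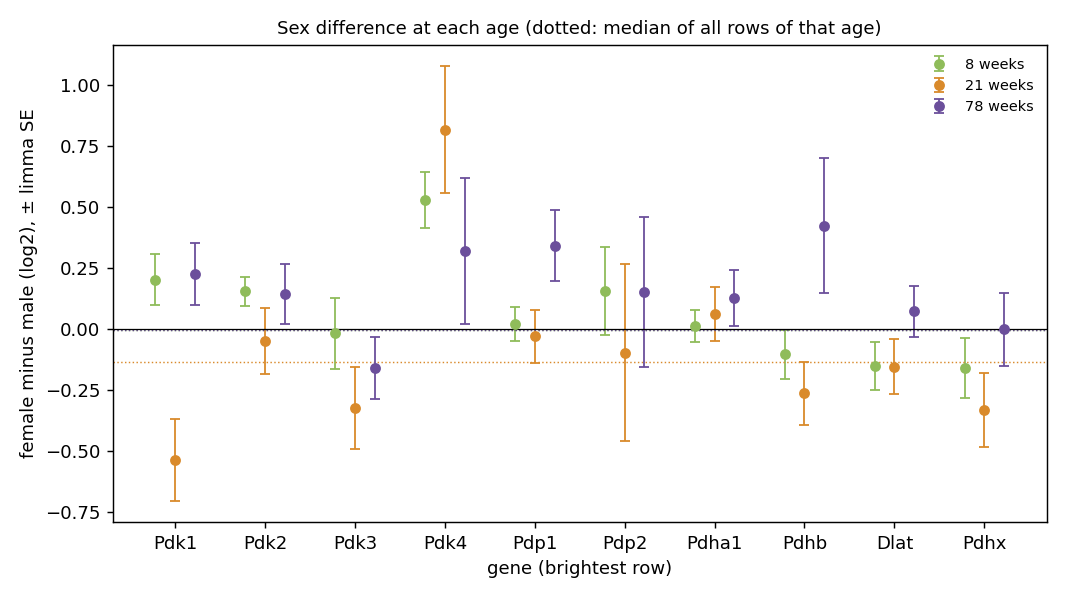
Female minus male difference of the brightest row of each gene (log2, y axis) with the limma standard error at 8, 21 and 78 weeks (green, orange, purple), dotted lines for the median of all rows of an age. Pdk4 is at 0.53, 0.82 and 0.32, and Pdk1 at 0.20, -0.54 and 0.22.

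Pooled over the 6 groups, hearts of one sex and age differed more for Pdk4 than for most probes, though not in every group. The pooled SD within the 6 groups was 0.41 for the bright probe, at the 95.9th percentile of the 14886 probes well above background on all 30 arrays, whose median SD was 0.21. It was 0.53 for the dim probe and 0.42 for the opposite-strand Pdhb probe, which stood at the 96.7th percentile. By group the bright Pdk4 probe had SDs of 0.19 and 0.18 in females and males of 8 weeks. At 21 weeks they were 0.62 and 0.10, and at 78 weeks 0.50 and 0.52. The 78-week groups held the 2 arrays at odds with their labels. Pdha1 had an SD of 0.12, at the 6.68th percentile, and the main Pdk2 probe, Pdp1 and the 2 Dlat probes had 0.16 each, at the 19.7th to 22.5th percentile. Pdk1 lay in the middle at 0.21, and the main Pdhb probe at 0.31, which includes the 78-week female noted above. In the normalized values Pdk4 spread by an SD of 0.07 only among males of 21 weeks. Pdk1 and Pdhb had SDs of 0.34 and 0.19 in that group.

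**Figure D5:**
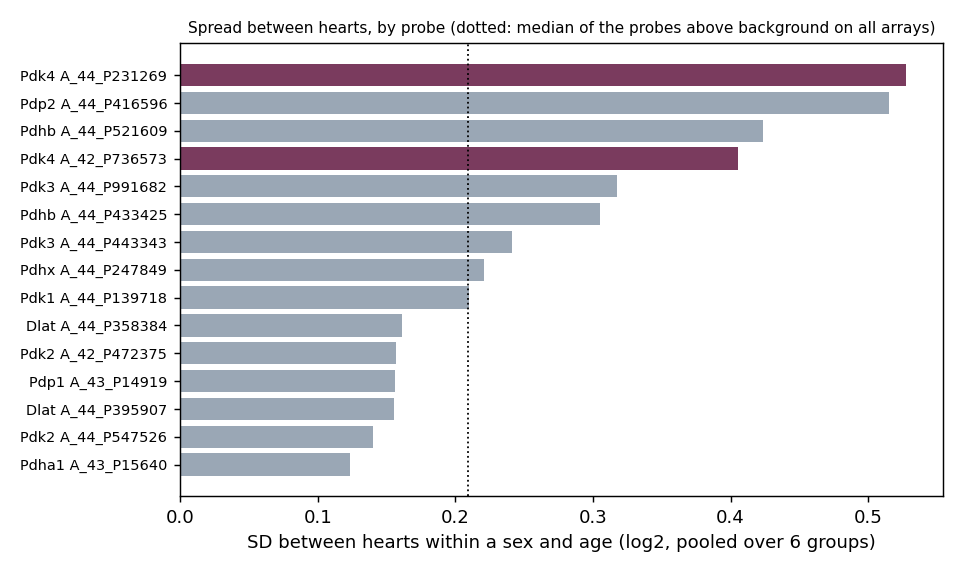
SD between hearts within a sex and age, pooled over the 6 groups (log2, x axis), for each of the 15 probes (y axis), Pdk4 in dark red, with a dotted line at 0.21, the median of the probes well above background on all arrays. The Pdk4 probes stand at 0.41 and 0.53 and Pdha1 at 0.12.

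The balance of the kinases on an array was read as the ratio of bright Pdk4 to the main Pdk2 row, which compares arrays and not transcript numbers. In females the ratio had medians of 0.394, 0.391 and 0.816 at 8, 21 and 78 weeks, and in males 0.305, 0.226 and 0.579. The 5 males of 21 weeks lay between 0.223 and 0.260, and the females of that age between 0.248 and 1.05. Pdk4 over Pdk1 had medians of 8.99 in females and 3.85 in males at 21 weeks, with ranges of 7.30 to 22.3 and 3.23 to 5.03 that did not overlap. At 8 weeks these medians were 9.16 and 6.60 and at 78 weeks 20.2 and 15.4, with overlap at both ages. The 21-week ratio joins the brightest rows with the largest differences of that age in each direction, 0.82 for Pdk4 and -0.54 for Pdk1. The share of other ratios that separate the sexes was not counted. Pdk4 over Pdp1 had medians of 4.58, 5.97 and 7.504 in females and 3.44, 3.23 and 6.46 in males.

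Levels at the 3 ages are given as a description, because per the methods the ages were run in different batches and the tables were scaled separately, so age and batch cannot be told apart. On the scanner scale the bright Pdk4 probe had group means of 4.81, 5.20 and 5.57 in females and 4.27, 4.37 and 5.23 in males at 8, 21 and 78 weeks, with SDs from 0.10 to 0.62. One slide held arrays of both 8 and 78 weeks, 1 rat of each sex and age, and there the bright probe read 4.76 and 5.82 in the females and 4.33 and 5.05 in the males. With single rats these values have no replicate. Dlat and Pdhx had their lowest table values at 78 weeks, where Dlat means were 2.21 and 2.14 in females and males, against 2.53 to 2.82 at the younger ages.

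Genes whose heart-to-heart variation was most like that of Pdk4 were taken over the 30 arrays from 12401 gene names, with group means subtracted. The highest correlations were with Ucp3, a mitochondrial uncoupling protein of muscle (Pearson r = 0.73, Spearman rho = 0.73), Pank1, which makes coenzyme A (0.66, 0.73), Irs2, an insulin receptor adaptor (0.63, 0.53), and Txnip, an inhibitor of thioredoxin and glucose uptake (0.62, 0.60), with the unnamed probe A_44_P114732 at 0.62. Without the 2 arrays farthest in Pdk4, Irs2 stood at 0.46. At 8 weeks alone Irs2 stood at 0.0096 and Txnip at 0.26, and at 21 weeks alone Pank1 stood at 0.35. For Ucp3 the value was 0.69, 0.61 and 0.83 within 8, 21 and 78 weeks and 0.73 without the 2 arrays farthest in Pdk4. The lowest were with Rpap2 (-0.71), Ppp1r3c, a glycogen-targeting subunit of protein phosphatase 1 (-0.69), the unnamed probe A_44_P309913 (-0.66), Napepld (-0.65) and Entpd2 (-0.65). For Rpap2, Ppp1r3c, A_44_P309913, Napepld and Entpd2 the value without those 2 arrays was -0.49, -0.48, -0.47, -0.32 and -0.36. At 8 weeks alone Napepld stood at 0.11 and A_44_P309913 at -0.02. Within the family the closest pairs were Dlat with Pdhx (0.76) and Pdha1 with Pdhb (0.75). Arrays share their depth and scaling, so these are descriptions with no test.

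Genes of fatty acid use that are known PPAR targets beside Pdk4 were measured in 25 names. At 8 weeks 23 of 25 had higher means in females, 6 with an unadjusted p under 0.05, where 5.74% of all rows had one, and their median difference was 0.12 beside -0.004 for all rows. Among them Decr1 differed by 0.23 (SE 0.07), Acot1 by 0.53 (SE 0.17) and Cd36, a fatty acid carrier, by 0.21 (SE 0.07). At 21 weeks 11 of 25 had higher means in females, 3 with an unadjusted p under 0.05 and 1 in the other direction, a share near the 15.9% of all rows, and the median was -0.07 beside -0.14. Cpt1a differed by 0.47 (SE 0.15), Acot2 by 0.31 (SE 0.13), Ucp3 by 0.54 (SE 0.24) and Acaa2, a thiolase of beta oxidation, by -0.44 (SE 0.13). At 78 weeks it was 20 of 25, 1 of them, Lpl, with an unadjusted p under 0.05 (0.26, SE 0.10), below the 5.65% of all rows. None of the 25 passed an adjusted p of 0.05 at any age.

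Targets of FoxO and glucocorticoid signaling were measured in 16 names, of which 15 had higher means in females at 8 weeks, 6 with an unadjusted p under 0.05, against 5.74% of all rows, and a median difference of 0.19. Txnip differed by 0.87 (SE 0.16, limma adjusted p = 0.148), Ddit4 by 0.40 (SE 0.11), the clock gene Per1 by 0.81 (SE 0.26) and the ubiquitin ligase Trim63 by 0.18 (SE 0.06). At 21 weeks 8 of 16 had higher means in females, 3 with an unadjusted p under 0.05, namely Irs2 at 0.93 (SE 0.17, limma adjusted p = 0.139), Txnip at 0.50 (SE 0.18) and Klf9 at 0.63 (SE 0.24), a share near the 15.9% of all rows. At 78 weeks it was 11 of 16 and 0 with an unadjusted p under 0.05. None passed after adjustment at any age.

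Of 17 regulators of Pdk4 transcription, 3 had an unadjusted p under 0.05 at 8 weeks, 1 at 21 weeks and 1 at 78 weeks, all higher in females, against 5.74%, 15.9% and 5.65% of all rows, and none passed after adjustment. They were Ppargc1a, a coactivator of PPAR (0.31, SE 0.10), Klf15 (0.35, SE 0.12) and Esrrb (0.72, SE 0.26) at 8 weeks, Nrip1 (0.35, SE 0.16) at 21 weeks and Ppard (0.31, SE 0.13) at 78 weeks. Esrrb was dim, with mean log2 values of -5.29 in females and -6.01 in males. The Pdk3 row of that age stood at -5.54 and -5.53, so the Esrrb difference rests on a weak signal. The median of the 17 was 0.02, 0.06 and 0.10 at the 3 ages.

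The remaining lists held few such genes, against the same shares of all rows. Of 19 other genes of the complex and of pyruvate handling, Me2 had an unadjusted p under 0.05 at 8 weeks (0.25, SE 0.11) and Brp44, a mitochondrial pyruvate carrier subunit, at 21 weeks (-0.56, SE 0.22), and none at 78 weeks. Dld, the E3 subunit, differed by -0.01, -0.005 and 0.01 at the 3 ages. Of 9 genes of the sister complexes, Bckdhb and Gcsh were under 0.05 at 21 weeks, at -0.33 (SE 0.14) and -0.35 (SE 0.15). Of 19 hypoxia-inducible genes known beside Pdk1, 1 was under 0.05 in any age, Pfkfb3 at 21 weeks (-0.76, SE 0.27), and the list's median of that age was 0.02. Pfkfb3 was dim as well, with mean log2 values of -5.86 in females and -5.10 in males of 21 weeks. Of 14 genes of glucose uptake and glycolysis, Pfkfb2 was under 0.05 at 8 weeks (0.31, SE 0.13), Tpi1 (-0.44, SE 0.16) and Pfkp (0.61, SE 0.24) at 21 weeks, and Pfkp at 78 weeks with the sign turned (-0.61, SE 0.24). None of these passed after adjustment.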

How the data were processed

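Per the methods and the submitters' processing notes, the deposited intensity values were made by the authors from Agilent Feature Extraction spot signals, averaged over the probes of a gene, with genes not expressed removed and each array divided by its 75th percentile, on a linear scale and separately for each age. The scanner files, also deposited by the authors, hold the intensity of each spot. Matching showed that 98.75%, 98.77% and 98.71% of the rows at 8, 21 and 78 weeks equalled the geometric mean of the processed signal of spots sharing a design name or probe within 0.002 log2, so scanner probes could be tied to rows. The columns of 21-week males name the group only, so single males of that age are not named in table values.

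Within each age the sexes were contrasted by limma 3.58.1 on the log2 scale in R 4.3.3, two-sided, with Benjamini-Hochberg adjustment over all rows and a threshold of 0.05. Single rows also have an exact permutation test that enumerates every split of the 10 rats. A model of the 30 arrays with group means used 41012 probes, each array's processed signals being divided by the 75th percentile of its non-control spots. The scripts were tested on simulated data. Where 1 value per gene was needed, the row with the highest mean was used. Other genes were named by the smallest p of each list, up to 4 at an age with p under 0.05, and the 5 highest and 5 lowest correlations with Pdk4. One gene that this rule names is not reported here. The members and lists were chosen with earlier results of these data known. Gene symbols are those of the tables, and all 10 matched RefSeq names. Alternatives were normexp with an offset of 50, the raw median signal, quantile normalization, a filter on dim rows, the methods' t-test, other row choices, slide and replicate blocks, and leaving out rats. With 5 rats per group the spread between rats limits the precision.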

Additional observations from a re-analysis of the deposited data

Results flagged for a closer look

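Of 60 sets of 5 rats (10 genes, brightest row, 6 groups), 3 held a rat set far apart by Dixon's test, where 3 would be flagged by chance. The test was made on log2 values, so the shares of a range below are on the log2 scale. In females of 78 weeks the highest Pdhb value, 37.5 in replicate 4, lay above the next, 15.5, by 0.778 of the group's range. In males of that age the highest Pdhb value, 15.8 in replicate 3, lay above the next, 12.3, by 0.897 of the range, and on this array the Y-linked genes went against the label. The highest Pdhx value of 78-week males, 1.25 in replicate 4, lay above the next, 0.843, by 0.799 of the range. Female replicate 4 at 78 weeks had the highest value of its group for 7 of 10 genes and the lowest for 2, Pdk4 and Pdk3.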

How the results depend on the processing

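Every alternative run left 0 rows of the family past an adjusted p of 0.05 at each age and 0 probes in the contrasts between ages, and the methods' t-test also made no call. The pooled fit moved most. Its 0 called probes became 1 with the raw median signal, 2 with dim probes left out, 2 without both arrays at odds with their labels, and 0 to 2 without single rats. The bright Pdk4 probe passed with the raw median signal (0.54, limma adjusted p = 0.0223), with dim probes left out (0.57, 0.0261) and without both arrays (0.68), and the dim probe with dim probes left out (0.69, 0.0343) and without both arrays (0.80). Without single rats these ran from 0.48 to 0.64 and from 0.58 to 0.76. With normexp the bright probe kept 0.57 and the adjusted p was 0.956, and the dim probe was at 0.19. Filtering leaves fewer probes to adjust over, and for the rest the cause was not tested.

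Counts over all rows moved as well. At 8 weeks 28 became 17 with normexp, 9 with the slide as a block and 13 to 32 without single rats. At 21 weeks 14 became 1 with normexp, 32 with the raw median signal, 30 with dim rows left out, 9 with the slide as a block and 8 to 22 without single rats. At 78 weeks 0 became 1 with quantile normalization, 9 without both arrays and 0 to 1 without single rats. The pooled 184 became 8 with normexp, 319 with the raw median signal, 853 with dim probes left out, 121 with the slide as a block, 445 without both arrays and 92 to 872 without single rats, the last without male replicate 1 at 21 weeks. Between 21 and 8 weeks 1 became 0 with normexp, 4 with quantile normalization, 0 with the slide as a block, 2 without both arrays and 0 to 102 without single rats. Between 78 and 8 weeks 0 became 1 with quantile normalization, 1 with dim probes left out and 0 to 1 without single rats, and between 78 and 21 weeks 1 became 0 with normexp and 1 to 461 without single rats. The counts of 102 and 461 were also those without male replicate 1 at 21 weeks.

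Differences that turned sign reached 0.69 in size, the largest with normexp. With normexp they were Pdk3 0.042 at 8 weeks, Pdk2 0.69, Pdp1 0.42, Pdhb 0.47 and Dlat 0.47 at 21 weeks, and Pdk4 -0.14, Pdk2 -0.21, Pdk3 0.14, Pdp1 -0.0079, Pdha1 -0.31 and Dlat -0.17 at 78 weeks. In contrasts between ages normexp turned Pdhb to 0.67 and Pdp1 to 0.35 for 21 against 8 weeks, Pdp1 to -0.081 for 78 against 8, and Pdhb to -0.28 and Pdp1 to -0.43 for 78 against 21. With the raw median signal they were Pdk3 0.047 and Pdha1 -0.010 at 8 weeks, Pdk2 0.19, Pdp1 0.089 and Dlat 0.049 at 21 weeks, and Pdhb 0.12 for 21 against 8 weeks. With quantile normalization they were Pdk3 0.12 and Pdha1 -0.0056 at 8 weeks, Pdk2 0.15, Pdp1 0.010 and Pdp2 0.017 at 21 weeks, and Pdhx 0.0079 at 78 weeks. Pdhx of 78 weeks was 0.018 in values rebuilt from the scanner files and with the slide as a block. The mean of a gene's rows gave Pdhb 0.15 at 8 and Pdk2 0.045 at 21 weeks, and its first row 0.40 and 0.14. Without both arrays the bright Pdk4 contrast of 78 against 8 weeks was 0.13. Without single rats the ranges that crossed 0 were -0.12 to 0.10 for Pdk3, -0.0069 to 0.061 for Pdp1 and -0.016 to 0.039 for Pdha1 at 8 weeks, -0.10 to 0.034 for Pdk2, -0.040 to 0.026 for Pdp1 and -0.30 to 0.18 for Pdp2 at 21 weeks, where it was not well above background in males, -0.064 to 0.13 for Pdhx at 78 weeks, and -0.052 to 0.10 for Pdk1 and -0.34 to 0.019 for the bright Pdk4 probe in 78 against 8 weeks. The cause was not tested.

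The replicate numbers were not used as pairs, since at no age did all 5 same-numbered pairs have deviations correlated above 0.1: 1, 2 and 4 of 5 did at 8, 21 and 78 weeks, and each of these females correlated best with the male of her own number. At 78 weeks that is a hint of pairing from the data, as the labels name no pairs. Females and males shared slides, and the part of the slide in these correlations was not tested. With the replicate block the counts were 5, 4 and 0 at the 3 ages and 170 pooled, 0 probes of the family were called, the pooled bright Pdk4 probe stayed at 0.57 (limma adjusted p = 0.0774), and Pdhx at 78 weeks was 0.018. Signal over background limits Pdk3, Pdp2 and the dim Pdk4 row, and male replicate 2 at 21 weeks had the fewest spots above background.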
